A study of Homo sapiens with 12 samples.

Results

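The genes described here encode the subunits, activators, inhibitor and assembly chaperones of the proteasome. They are the 46 protein-coding genes, of 30225 listed, whose symbol is PSMA, PSMB, PSMC, PSMD, PSME, PSMF or PSMG followed by a number alone. Membership rests on the symbol, but the set was chosen with earlier results of these data known. Of the 46, 45 reached at least 1 TPM (an abundance scaled for transcript length and library total) in at least 3 of 12 libraries and were tested among 15721 genes. The exception was PSMG4, an assembly chaperone, which lay between 0.298 and 0.950 TPM. The genes were sorted by symbol into 7 classes. Core classes were 7 core alpha subunits (PSMA) and 7 constitutive core beta subunits (PSMB1 to PSMB7). Cap classes were 6 ATPases of the cap base (PSMC) and 14 PSMD genes called other cap here. Other cap follows the PSMD symbol and holds assembly chaperones such as PSMD9, so not every member is a cap subunit. The 5 immunoproteasome genes were PSMB8, PSMB9, PSMB10, PSME1 and PSME2. The last classes were 3 other partners of the core (the activators PSME3 and PSME4 and the inhibitor PSMF1) and 4 assembly chaperones (PSMG).

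RNA was sequenced from PC9, an EGFR-mutant human lung adenocarcinoma cell line, in 4 groups of 3 libraries: cells with AGR2 knockdown and control cells after 24 h of 300 nM gefitinib, and cells with AGR2 overexpression and control cells after 72 h of the same dose. Gefitinib inhibits the EGFR kinase and was given to all 4 groups, so no group shows PC9 cells without the drug. AGR2 is a protein disulfide isomerase of the endoplasmic reticulum. It averaged 0.673 ± 0.089 TPM in knockdown cells and 31.9 ± 0.87 TPM in 24 h controls, and 11.2 ± 0.81 TPM in overexpressing cells and 8.11 ± 0.48 TPM in 72 h controls (SD, n = 3 each); both differences had the labelled direction (log2 fold change -4.30, adjusted p = 1.26e-10, and 0.42, adjusted p = 0.000325, limma). The labels used here do not give the vectors, the number of clones, or whether the 3 libraries of a group came from separate cultures, so p-values measure the spread between these libraries, which may be technical.

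The proteasome is the protease of the cytosol and nucleus that degrades proteins tagged with ubiquitin. Its core is a barrel of alpha and beta rings, and the beta subunits PSMB5, PSMB6 and PSMB7 carry the constitutive proteolytic sites. The regulatory cap recognises ubiquitin, removes it and unfolds the substrate with its ring of PSMC ATPases. In cells exposed to interferon, PSMB8, PSMB9 and PSMB10 take the places of PSMB5, PSMB6 and PSMB7 in newly built cores, and PSME1 with PSME2 forms the PA28 activator; this immunoproteasome is known for producing peptides for MHC class I.

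Libraries held between 12130 and 14589 genes at 1 TPM or more, 13795 to 14089 in knockdown cells and 12130 to 12662 in 24 h controls. Mitochondrially encoded transcripts took 36.2 to 37.1% of TPM in knockdown cells, 42.6 to 46.5% in 24 h controls, 37.3 to 47.4% in overexpressing cells and 41.1 to 42.8% in 72 h controls. Overexpression replicate 1 stood apart from the other 2 of its group, with 37.3% of TPM from mitochondrial transcripts against 47.4 and 45.8%, and its lowest correlation with a library of its own group was 0.972. The 6 epithelial markers EPCAM, CDH1, KRT8, KRT18, KRT19 and KRT7 each exceeded 1 TPM in at least 1 library, with summed levels of 2823 to 3063 TPM in knockdown cells, 5740 to 7324 TPM in 24 h controls, 7473 to 9473 TPM in overexpressing cells and 5562 to 5964 TPM in 72 h controls. Among the leukocyte markers, PTPRC stayed under 1 TPM in every library, LYZ lay between 0.627 and 1.81 TPM, and CD68 made up nearly all of a summed level of 126 to 152 TPM in knockdown cells and 51.3 to 62.5 TPM in 24 h controls, and of 59.9 to 70.7 TPM in overexpressing cells and 109 to 110 TPM in 72 h controls. Fibroblast markers were represented by COL1A1 at 3.54 to 8.56 TPM and PDGFRB near 0, and the 3 endothelial markers summed to at most 1.22 TPM; whether other cells contribute to any proteasome value was not tested.

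The mRNAs of a complex built from fixed parts differed widely in level. In 24 h controls the 3 highest were PSMB4, a core beta subunit, at 327 ± 29.95 TPM, PSMB6 at 259 ± 24.6 TPM and PSMD2, a scaffold of the cap, at 148 ± 7.0 TPM. The lowest tested genes were PSMD14, the deubiquitinase of the cap lid, at 2.38 ± 0.16 TPM, PSMB9 at 2.58 ± 0.28 TPM and PSMA1 at 2.89 ± 0.096 TPM; PSMD14 and PSMB9 differed by less than their spread. Alpha subunits, each of which occurs once per ring, ranged from PSMA1 to PSMA7 at 70.8 ± 7.9 TPM. Reads of near-identical copies affect a few of these levels: pseudogene entries named after PSMC1, PSMA6 and PSME2 held more TPM than the genes themselves, for PSMC1 156 TPM over 6 entries against 4.54 TPM in 24 h controls, so the levels of these 3 genes are uncertain.

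With AGR2 knockdown the mRNAs of nearly the whole constitutive proteasome were higher, and none of the immunoproteasome mRNAs was. Of 45 tested genes 39 rose and 3 fell, where 65.6% of all tested genes were called, 53.6% higher and 11.9% lower (limma with Benjamini-Hochberg adjustment over all tested genes, threshold 0.05). Most tested genes had higher TPM in knockdown cells, the median tested gene by 0.35 on the log2(TPM + 1) scale. The mitochondrial share was lower in knockdown cells (36.2 to 37.1% against 42.6 to 46.5% in 24 h controls). With TPM rescaled over protein-coding nuclear genes alone, where PSMG4 also passed the filter, 37 of 46 were higher and 6 lower. No share over all tested genes is given for that rescaling, so these counts stand without a background. All fold changes below are on the log2(TPM + 1) scale, which understates changes of low genes. Those called relative are given after subtracting the change of the median tested gene in the same comparison. After rescaling each library by its median ratio, 31 of 45 were higher and 7 lower, where 59% of all tested genes were called, 30.6% higher and 28.4% lower. The libraries of the 2 groups did not overlap for 39 higher and 3 lower proteasome genes, and for 57.3% of all tested genes higher and 13.6% lower. The median relative change of the 45 was 0.55. The summed TPM of the 14 constitutive core genes averaged 1698 ± 55.3 in knockdown cells and 912 ± 72.3 in 24 h controls, 1.86 times as high, and that of the 20 PSMC and PSMD genes 1710.3 ± 29.9 in knockdown cells and 682 ± 21.5 in 24 h controls, 2.51 times as high (SD, n = 3 each). These sums are of TPM as deposited and include the shift that most genes shared. The median-ratio factors, by which rescaling divides each library, were 1.07 to 1.13 in knockdown libraries and 0.768 to 0.822 in 24 h controls. Subtracting the median gene can take off less than rescaling does: PSMB5 changed by 0.52 relative and by 0.41 after rescaling. In bulk RNA, fewer cells carrying a transcript and less RNA per cell cannot be told apart.

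**Figure D1:**
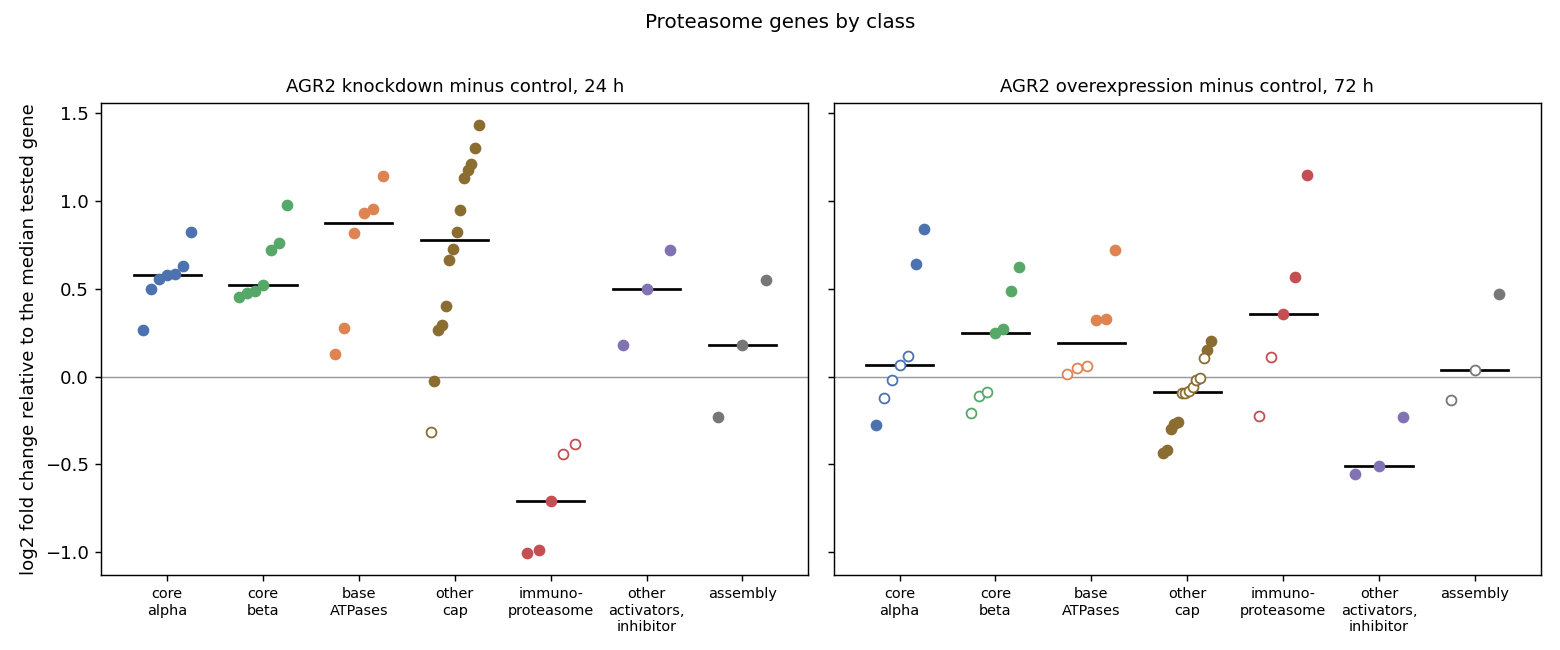
Each point is 1 tested gene, placed by class, and the vertical axis is its log2(TPM + 1) fold change minus that of the median tested gene, for knockdown minus control at 24 h on the left and overexpression minus control at 72 h on the right. Filled points passed the limma test as deposited, open points did not, and bars are class medians: 0.87 for the base ATPases and -0.71 for the immunoproteasome with knockdown, and 0.19 and 0.35 for the same classes with overexpression.

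The core rose as a block with knockdown. All 7 alpha subunits, which form the gated outer rings, were higher, by 0.62 (PSMA2) to 1.17 (PSMA7), and after rescaling 6 of 7 were, PSMA2 no longer passing. All 7 constitutive beta subunits were higher, by 0.80 (PSMB7) to 1.33 (PSMB2) as deposited, and all 7 still passed after rescaling, by 0.35 (PSMB4) to 0.87 (PSMB2), PSMB6 with an adjusted p = 0.0495. PSMB5, the chymotrypsin-like site, had 36.6, 36.4 and 38.8 TPM in the knockdown libraries, against 21.6, 18.4 and 19.9 TPM in the 24 h controls. The groups did not overlap, and the change was 0.87 ± 0.10 (SE, with a limma adjusted p = 3.17e-05). PSMB6, the caspase-like site, had 452, 456 and 474 TPM in the knockdown libraries, against 286, 238 and 252 TPM in the 24 h controls, a change of 0.84 ± 0.13 (adjusted p = 0.000245). PSMB7, the trypsin-like site, had 22.5, 23.04 and 23.03 TPM in the knockdown libraries, against 13.3, 12.5 and 12.3 TPM in the 24 h controls, a change of 0.80 ± 0.077 (adjusted p = 6.71e-06). Every knockdown library exceeded every 24 h control at all 3 constitutive sites, by similar factors of 1.87, 1.78 and 1.80 in mean TPM as deposited.

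The regulatory cap held the largest rises. All 6 base ATPases were higher, with a median relative change of 0.87, and 4 of 6 after rescaling, the exceptions being PSMC1 and PSMC2, which changed by 0.63 and 0.48 before it. PSMC4 rose most, to 104 ± 3.2 TPM in knockdown cells, against 36.4 ± 2.9 TPM in 24 h controls. Of the 14 other cap genes 13 were higher and 11 after rescaling, with a median relative change of 0.78. PSMD6, a lid subunit, was the one that did not pass, at 13.7 ± 0.56 TPM in knockdown cells and 13.3 ± 0.32 TPM in 24 h controls (0.034, adjusted p = 0.525), and it was called lower after rescaling. PSMD4 and PSMD9, a ubiquitin receptor and an assembly chaperone of the base, no longer passed after rescaling.

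The 4 genes with the largest called changes were all cap subunits. PSMD2, a base scaffold that docks substrates' shuttles, had 527, 494 and 514 TPM in the knockdown libraries, against 141, 147 and 155 TPM in the 24 h controls. It changed by 1.79 ± 0.048 (SE, adjusted p = 1.78e-09), or 1.43 relative to the median gene. PSMD11, a lid subunit, had 33.3, 29.8 and 31.4 TPM in the knockdown libraries, against 9.18, 9.48 and 9.27 TPM in the 24 h controls, a change of 1.65 ± 0.048 (adjusted p = 3.08e-09). In both genes the lowest knockdown library lay far above the highest 24 h control. PSMD3, a lid subunit, had 74.7, 73.3 and 80.6 TPM in the knockdown libraries, against 25.4, 23.4 and 26.7 TPM in the 24 h controls, a change of 1.56 ± 0.057 (adjusted p = 1.1e-08). PSMD12, also of the lid, had 30.9, 29.6 and 29.02 TPM in the knockdown libraries, against 9.17, 10.2 and 9.68 TPM in the 24 h controls, a change of 1.53 ± 0.062 (adjusted p = 2.16e-08). None of these 4 overlapped between the groups, and leaving out any 1 library kept their changes between 1.49 and 1.82. PSMD14 rose by as large a factor in mean TPM as deposited, 3.54, at a low level, with 8.44 ± 0.40 TPM in knockdown cells and 2.38 ± 0.16 TPM in 24 h controls.

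The promoters of PSMD3 and PSMD12 are shown because both hold the core of the antioxidant response element, TGACNNNGC, the motif bound by NFE2L1, the factor known for raising proteasome genes when proteasome activity is short. The promoters of PSMD2 and PSMD11, the 2 genes with larger rises, hold no match to any of the 3 motifs searched. TGACNNNGC was held by 27.5% of the 40 proteasome genes with a promoter entry and by 12.4% of tested coding genes. It was held by 0 of 6 base ATPases, the class with the highest median, and by 3 of 5 immunoproteasome genes, of which none rose with knockdown. Whether NFE2L1 contributes to any of these changes was not tested. Each is the stretch of 250 bases before the RefSeq start on GRCh38.p14, written 5′ to 3′ on the gene's strand, with capitals marking every match, on either strand, to TGACNNNGC, to the core of the interferon-stimulated response element (GAAA, any 2 bases, GAAA) or to TTCNNNGAA (the core of a STAT site). The PSMD3 window, chr17:39980557-39980806, plus strand, holds TGACTCGGC and TTCCTCGAA, starting 37 and 94 bases before the start. The PSMD12 window, chr17:67366578-67366827, minus strand, holds TGACGCTGC, starting 165 bases before the start.
PSMD3: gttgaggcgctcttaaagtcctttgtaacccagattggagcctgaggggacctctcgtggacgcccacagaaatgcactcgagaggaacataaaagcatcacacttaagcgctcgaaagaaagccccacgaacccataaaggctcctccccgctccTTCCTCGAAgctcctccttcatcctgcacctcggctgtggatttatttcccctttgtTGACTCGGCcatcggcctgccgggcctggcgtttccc
PSMD12: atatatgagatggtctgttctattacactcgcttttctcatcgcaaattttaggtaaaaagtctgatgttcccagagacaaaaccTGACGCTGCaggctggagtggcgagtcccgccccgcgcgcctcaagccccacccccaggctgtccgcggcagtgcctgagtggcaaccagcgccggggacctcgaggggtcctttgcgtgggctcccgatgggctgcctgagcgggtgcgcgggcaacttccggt

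PSME3, PSME4 and PSMF1 are partners of the core outside the standard cap: PSME3 forms the nuclear activator PA28 gamma, PSME4 is the activator PA200, and PSMF1 is the inhibitor PI31. All 3 rose with knockdown, PSME3 to 46.1 ± 2.4 TPM in knockdown cells, against 21.4 ± 1.6 TPM in 24 h controls (1.07 ± 0.080, adjusted p = 1.15e-06), PSME4 by 0.85 and PSMF1 by 0.53; after rescaling PSMF1 no longer passed. Among the assembly chaperones PSMG1, which pairs with PSMG2 to build alpha rings, rose by 0.90. PSMG3 rose by 0.53 and no longer passed after rescaling. PSMG2 rose by 0.12 as deposited but was lower after rescaling, so its direction depends on the scaling. PSMG4, too low to be tested, averaged 0.774 ± 0.052 TPM in knockdown cells and 0.425 ± 0.054 TPM in 24 h controls.

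Among the immunoproteasome genes 0 of 5 rose and 3 fell, where 53.6% of all tested genes were higher and 11.9% lower. After rescaling all 5 were lower, where 28.4% of all tested genes were. PSMB10, the immunoproteasome counterpart of PSMB7, had 20.7, 23.3 and 27.1 TPM in the knockdown libraries, against 49.4, 29.002 and 35.8 TPM in the 24 h controls. Its change was -0.64 ± 0.20 (adjusted p = 0.0164); the 24 h controls spread widely, the groups did not overlap, and without 24 h control replicate 1 the change was -0.44 and no longer passed, nor did it without knockdown replicate 1, at -0.55. PSMB9, the counterpart of PSMB6, had 1.80, 1.78 and 1.77 TPM in the knockdown libraries, against 2.63, 2.28 and 2.82 TPM in the 24 h controls, a change of -0.36 ± 0.092 (adjusted p = 0.00578). PSMB8, the counterpart of PSMB5, had 62.3, 61.5 and 66.2 TPM in the knockdown libraries, against 69.3, 61.4 and 64.2 TPM in the 24 h controls, groups that overlapped and a change of -0.034 ± 0.11 that did not pass (adjusted p = 0.812).

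The PA28 subunits split as deposited. PSME1 had 48.7, 48.7 and 48.8 TPM in the knockdown libraries, against 82.6, 74.4 and 75.3 TPM in the 24 h controls. Each knockdown library lay below each control, and the change was -0.66 ± 0.096 (adjusted p = 0.000147). PSME2 had 32.3, 38.1 and 34.1 TPM in the knockdown libraries, against 38.9, 36.2 and 36.1 TPM in the 24 h controls, groups that overlapped and a change of -0.090 ± 0.11 that did not pass (adjusted p = 0.49). PSMB8 and PSME2 were called lower once libraries were rescaled, with changes of -0.50 and -0.56, so for these 2 genes the call rests on the scaling; for PSMB9, PSMB10 and PSME1 it did not. Relative to the median tested gene the 5 lay between -1.01 and -0.38, where 37 of all 45 tested genes, none of them these 5, lay above 0.

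**Figure D2:**
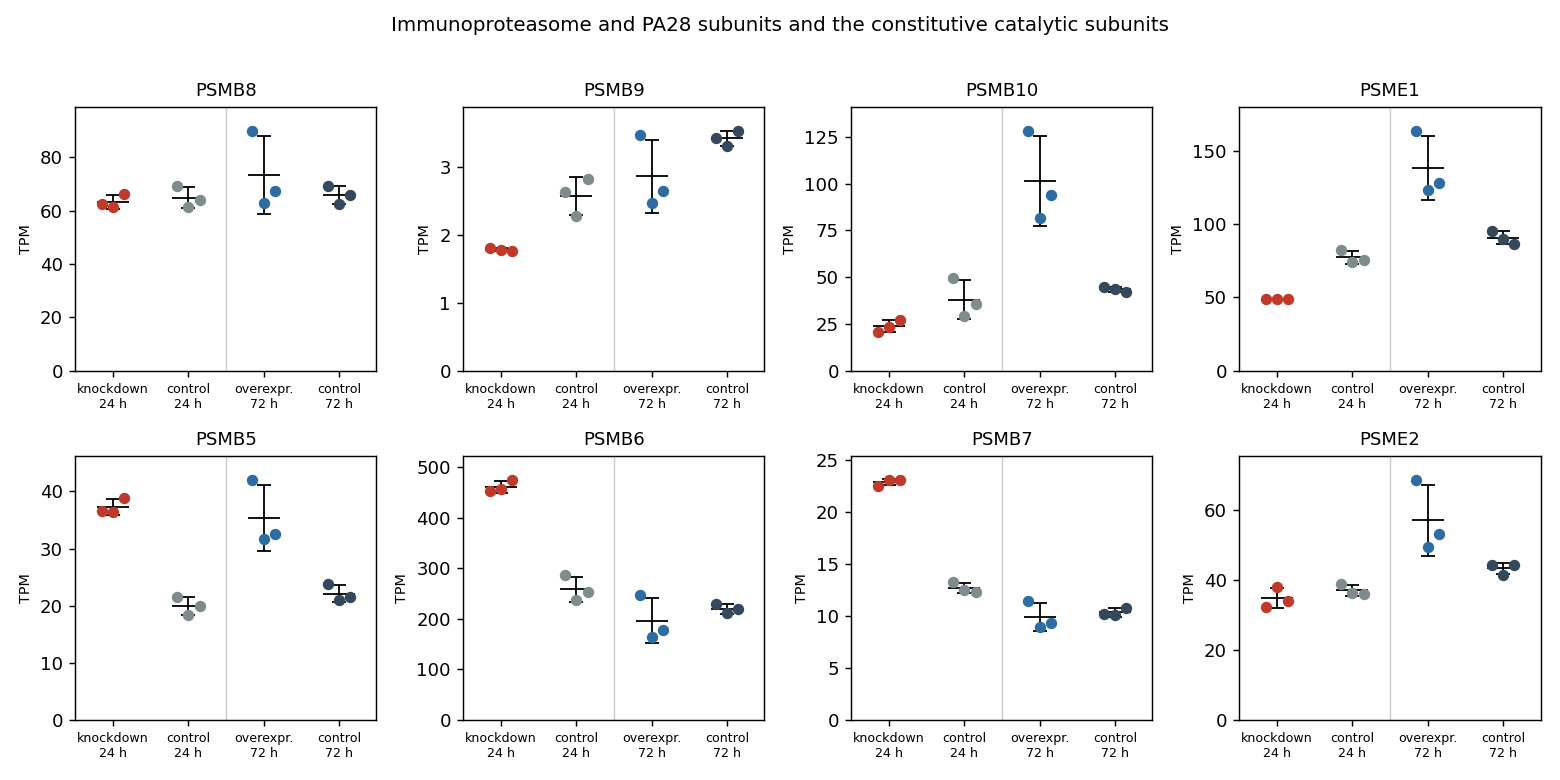
Each panel gives 1 gene's TPM in the 12 libraries, from left to right knockdown and control at 24 h and overexpression and control at 72 h; points are libraries, and bars the mean and SD of 3. The upper row holds PSMB8, PSMB9, PSMB10 and PSME1, the lower row PSMB5, PSMB6, PSMB7 and PSME2; all 3 constitutive sites are higher in knockdown cells than in 24 h controls, while PSMB10 and PSME1 are lowest there and highest in overexpressing cells.

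With AGR2 overexpression the whole set did not move one way. Of 45 tested genes 15 were higher and 9 lower, where 55.4% of all tested genes were called, 29.9% higher and 25.5% lower, and 21 did not pass. After rescaling 12 were higher and 9 lower, where 56.1% of all tested genes were called, 28.9% higher and 27.1% lower. The groups did not overlap for 14 higher and 9 lower proteasome genes, and for 33.2% of all tested genes higher and 29.9% lower. The median relative change of the 45 was 0.013. Summed TPM averaged 939 ± 168 for the constitutive core in overexpressing cells and 844 ± 33.5 in 72 h controls, and for the PSMC and PSMD genes 889.6 ± 49.7 in overexpressing cells and 868.02 ± 20.01 in 72 h controls, both differences within the spread of the overexpression libraries. Counts of lower genes depended on overexpression replicate 1: without it 11 were higher and 15 lower, among them PSMB6 (-0.36), PSMB7 (-0.16) and PSMB9 (-0.31). No share over all tested genes is given without that library. Whether this shift is particular to proteasome genes was not tested.

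The genes that rose with overexpression came from several classes. PSMB10 rose most, with 128, 81.6 and 93.9 TPM in the overexpression libraries, against 44.9, 43.6 and 42.002 TPM in the 72 h controls. Every overexpression library lay far above every control, and the change was 1.17 ± 0.20 (adjusted p = 0.000586), 0.99 without overexpression replicate 1. PSME1 had 164, 123 and 128 TPM in the overexpression libraries, against 95.3, 90.1 and 86.8 TPM in the 72 h controls, a change of 0.59 ± 0.096 (adjusted p = 0.000444). PSME2 had 68.6, 49.4 and 53.2 TPM in the overexpression libraries, against 44.1, 41.4 and 44.3 TPM in the 72 h controls, a change of 0.38 ± 0.11 (adjusted p = 0.0134). Neither PA28 subunit overlapped between the groups. PSMB8 had 89.9, 62.9 and 67.3 TPM in the overexpression libraries, against 69.4, 62.6 and 65.8 TPM in the 72 h controls, groups that overlapped and no call (0.14 ± 0.11, adjusted p = 0.341). PSMB9 had 3.47, 2.46 and 2.65 TPM in the overexpression libraries, against 3.42, 3.31 and 3.53 TPM in the 72 h controls; replicate 1 lay within the controls and the other 2 below them, and the change of -0.20 ± 0.092 did not pass (adjusted p = 0.0862). Thus 3 of the 5 immunoproteasome genes rose and PSMB8 and PSMB9, which neighbour each other in the MHC region, did not pass.

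PSMB10, PSME1 and PSME2 were the immunoproteasome genes higher with overexpression, and their promoters are shown with the same 3 motifs in capitals. The PSMB10 window, chr16:67936851-67937100, minus strand, holds GAAAGCGAAA, starting 21 bases before the start. The PSME2 window, chr14:24146611-24146860, minus strand, holds the same GAAAGCGAAA, starting 28 bases before the start, and TGACCCAGC, starting 175 bases before it. The PSME1 window, chr14:24135944-24136193, plus strand, holds TGACCCCGC, starting 86 bases before the start, with no match to the interferon motif in this window. Of PSMB8 and PSMB9, which did not pass and are not shown, the PSMB8 window holds no match. The PSMB9 window holds only GCCTCGTCA, a match to TGACNNNGC on the other strand, starting 148 bases before the start.
PSMB10: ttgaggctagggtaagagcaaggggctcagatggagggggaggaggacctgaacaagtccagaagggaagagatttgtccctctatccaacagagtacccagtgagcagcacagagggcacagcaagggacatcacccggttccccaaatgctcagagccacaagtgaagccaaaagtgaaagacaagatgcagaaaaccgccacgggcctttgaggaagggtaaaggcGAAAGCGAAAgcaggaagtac
PSME2: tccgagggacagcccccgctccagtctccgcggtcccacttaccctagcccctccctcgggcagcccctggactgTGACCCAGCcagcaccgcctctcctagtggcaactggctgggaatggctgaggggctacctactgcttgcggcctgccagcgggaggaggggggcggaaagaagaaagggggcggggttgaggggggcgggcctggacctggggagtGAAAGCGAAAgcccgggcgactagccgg
PSME1: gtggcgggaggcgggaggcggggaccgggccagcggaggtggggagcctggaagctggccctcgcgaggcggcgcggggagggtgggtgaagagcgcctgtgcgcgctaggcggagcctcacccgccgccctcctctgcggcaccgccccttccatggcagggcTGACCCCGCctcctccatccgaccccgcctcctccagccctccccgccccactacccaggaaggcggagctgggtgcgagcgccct
Over the 40 proteasome genes with an entry in the RefSeq promoter table, 5 held the interferon-stimulated core (PSMA4, PSMB4, PSMB10, PSME2 and PSMG4), or 12.5%, against 2.2% of 8668 tested coding genes and 3.0% of all promoters in the table. The 12.5% counts PSMG4, which was not a tested gene. Genes with this core did not move together: PSMA4 fell with overexpression (-0.25) and PSMB4 rose (0.30, not after rescaling). Both rose with knockdown, by 0.94 and 0.83, where PSMB10 fell and PSME2 did not pass. TGACNNNGC was held by 11, or 27.5%, against 12.4 and 10.9%, and TTCNNNGAA by 4, or 10.0%, against 5.5 and 6.6%. By class TGACNNNGC was held by 2 of 3 assembly chaperones, 3 of 5 immunoproteasome genes, 1 of 3 other partners of the core, 4 of 13 other cap genes, 1 of 4 beta subunits, 0 of 6 alpha subunits and 0 of 6 base ATPases. Matches are descriptions of the letters and not of binding.

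Among constitutive genes the 3 largest called changes with overexpression were rises of single core or base subunits. PSMA3, an alpha subunit, had 20.05, 16.6 and 16.9 TPM in the overexpression libraries, against 9.66, 9.36 and 8.96 TPM in the 72 h controls, a change of 0.86 ± 0.068 (adjusted p = 2.99e-06). PSMC6, a base ATPase, had 18.2, 15.7 and 15.5 TPM in the overexpression libraries, against 9.56, 9.52 and 9.06 TPM in the 72 h controls, a change of 0.75 ± 0.077 (adjusted p = 1.83e-05). PSMA6, an alpha subunit, had 17.04, 15.1 and 14.3 TPM in the overexpression libraries, against 9.91, 9.08 and 9.11 TPM in the 72 h controls, a change of 0.67 ± 0.065 (adjusted p = 1.35e-05). No library of the 2 groups overlapped in any of the 3. PSMB5 had 41.99, 31.6 and 32.5 TPM in the overexpression libraries, against 23.8, 20.97 and 21.5 TPM in the 72 h controls, a change of 0.65 ± 0.10 (adjusted p = 0.000397), while PSMB6 had 247, 164 and 178 TPM in the overexpression libraries, against 229.7, 211 and 218 TPM in the 72 h controls and PSMB7 11.4, 8.95 and 9.30 TPM in the overexpression libraries, against 10.2, 10.03 and 10.8 TPM in the 72 h controls. PSMB6 and PSMB7 did not pass (adjusted p = 0.264 and 0.507), and in both, replicate 1 lay above all controls and the other 2 overexpression libraries below all of them.

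By class, 2 of 7 alpha subunits were higher with overexpression and PSMA4 was lower (-0.25). Of the beta subunits PSMB5, PSMB3 (0.51), PSMB4 (0.30) and PSMB1 (0.27) were higher, the last 2 no longer after rescaling. Of the base ATPases PSMC6, PSMC4 and PSMC5 were higher, PSMC4 and PSMC5 both by 0.35. Other cap genes held 2 of the rises, PSMD13 (0.23) and PSMD3 (0.18), and 5 falls. PSMD13 no longer passed after rescaling, and PSMD3 no longer passed without 72 h control replicate 2 or 3 or overexpression replicate 2 or 3, each at 0.17. PSMD11 fell to 11.5 ± 0.31 TPM in overexpressing cells, against 15.6 ± 0.11 TPM in 72 h controls (-0.41 ± 0.048, adjusted p = 4.94e-05), and PSMD1, a base scaffold, fell by 0.39. PSMD5, PSMD14 and PSMD2 fell by 0.27, 0.25 and 0.24. The 3 further partners of the core all fell: PSME3 to 25.8 ± 2.7 TPM in overexpressing cells, against 37.6 ± 0.20 TPM in 72 h controls (-0.53 ± 0.080, adjusted p = 0.000277), PSME4 by 0.48 and PSMF1 by 0.21. PSMG2 rose by 0.50 (adjusted p = 4.24e-06), to 4.55 ± 0.11 TPM in overexpressing cells, against 2.94 ± 0.044 TPM in 72 h controls, and PSMG1 and PSMG3 did not pass.

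**Figure D3:**
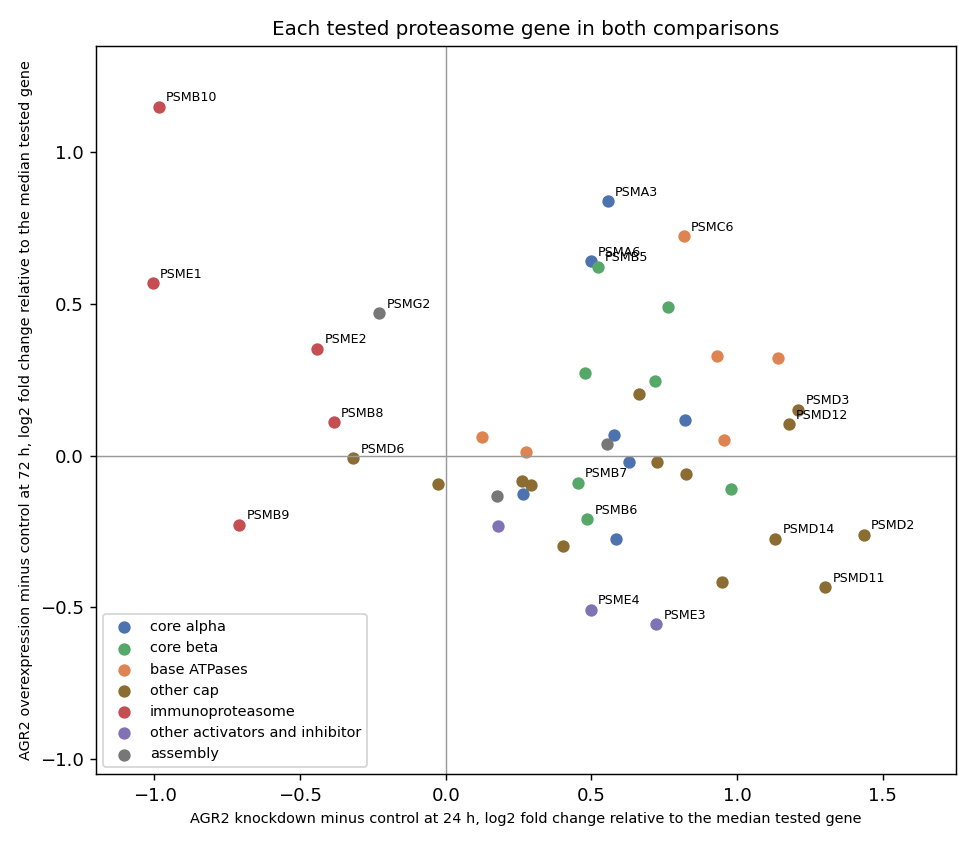
Each point is 1 of the 45 tested genes, coloured by class, with its fold change relative to the median tested gene for knockdown minus control at 24 h on the horizontal axis and for overexpression minus control at 72 h on the vertical axis. PSMB10 sits at -0.99 and 1.15, opposite PSMD2 at 1.43 and -0.26, and PSMA3 is high in both at 0.56 and 0.84.

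The difference between the overexpression effect and the knockdown effect tests whether a gene responded differently in the 2 engineered populations, which differ in time as well as in AGR2. Of 45 tested genes 35 had a lower difference and 4 a higher one, where 65.7% of all tested genes were called, 45.6% lower and 20.1% higher. After rescaling the counts were 25 and 9, where 63.7% were called, 31.8% lower and 31.9% higher. The 4 higher ones were PSMB10 (difference 1.81 ± 0.28, SE, adjusted p = 0.000225), PSME1 (1.25 ± 0.14, adjusted p = 1.74e-05), PSME2 (0.47 ± 0.15, adjusted p = 0.0209) and PSMG2 (0.37 ± 0.058, adjusted p = 0.000233). PSMB8 and PSMB9 did not pass as deposited (0.17 and 0.16) and did after rescaling. The lowest differences belonged to PSMD11 (-2.06 ± 0.068) and PSMD2 (-2.02 ± 0.069), both of which rose with knockdown and fell with overexpression. PSMA3, PSMA6 and PSMB5, which rose in both populations, did not pass as deposited, and PSMA3 and PSMA6 were called higher after rescaling. Without overexpression replicate 1 the differences of PSMB5 and PSMA6 passed as lower, at -0.35 and -0.25, and without knockdown replicate 1 that of PSME2 no longer passed, at 0.42.

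Each immunoproteasome site was also set against the constitutive site it replaces. The ratio of TPM within a library does not depend on how that library is scaled, but the tested difference of log2(TPM + 1) does through its pseudocount, most for the low PSMB9. With knockdown all 3 ratios of TPM were lower. PSMB8 to PSMB5 was 1.70, 1.69 and 1.70 in the knockdown libraries, against 3.21, 3.34 and 3.22 in the 24 h controls. PSMB9 to PSMB6 was 0.00398, 0.00390 and 0.00373 in the knockdown libraries, against 0.00921, 0.00956 and 0.0112 in the 24 h controls. PSMB10 to PSMB7 was 0.923, 1.01 and 1.18 in the knockdown libraries, against 3.73, 2.33 and 2.91 in the 24 h controls. The groups did not overlap in any of them, and the difference of log2(TPM + 1) was -0.91, -1.19 and -1.44 in that order of pairs. With overexpression the pairs parted. PSMB10 to PSMB7 was 11.2, 9.12 and 10.1 in the overexpression libraries, against 4.41, 4.35 and 3.89 in the 72 h controls, a difference of 1.24. PSMB8 to PSMB5 was lower, at 2.14, 1.99 and 2.07 in the overexpression libraries, against 2.92, 2.98 and 3.06 in the 72 h controls, a difference of -0.51. PSMB9 to PSMB6 was 0.0141, 0.0150 and 0.0149 in the overexpression libraries, against 0.0149, 0.0157 and 0.0162 in the 72 h controls, and these overlapped; its difference was -0.019, and 0.079 with a pseudocount of 5. A two-sided exact permutation test of 3 against 3 libraries gave p = 0.1, the smallest it can give, for 5 of the 6 comparisons and p = 0.9 for PSMB9 to PSMB6 with overexpression, or 0.12 and 0.9 after Benjamini-Hochberg adjustment over the 6. PSMB8 and PSMB9 overlap each other on opposite strands of chromosome 6, between 32844136 and 32844679 in the deposited coordinates. No source used here gives the strandedness of the libraries, so reads within that stretch may not be told apart.

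**Figure D4:**
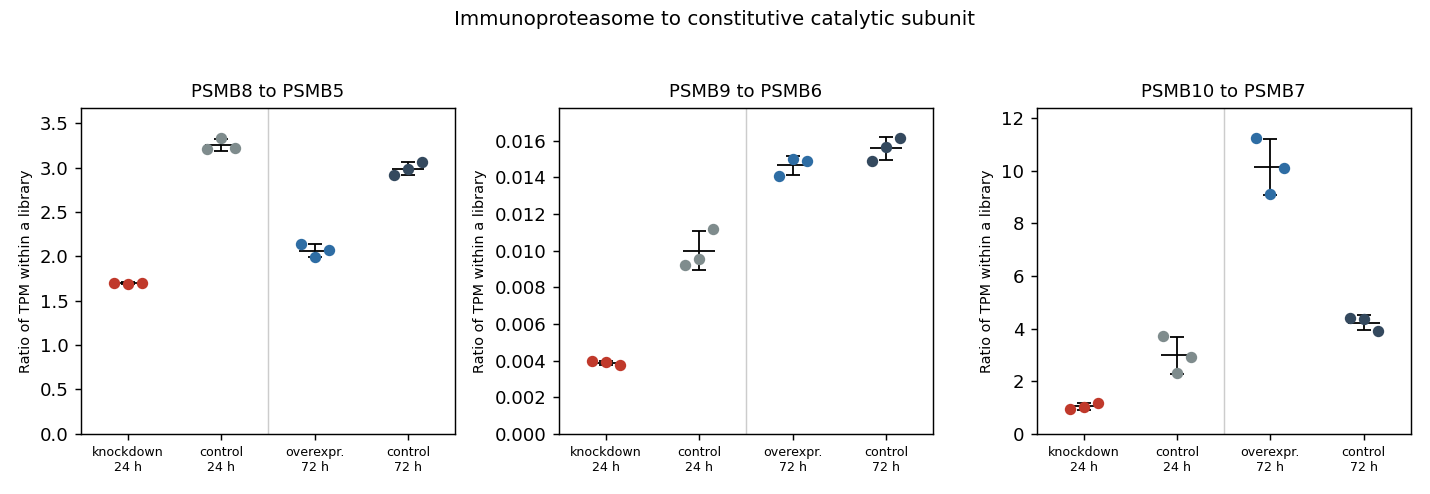
Each panel gives the ratio of TPM within a library for 1 pair of an immunoproteasome and a constitutive catalytic subunit; points are libraries, bars the mean and SD of 3, from left to right knockdown and control at 24 h, overexpression and control at 72 h. PSMB10 to PSMB7 averaged 1.04 in knockdown cells against 2.99 in 24 h controls, and 10.2 in overexpressing cells against 4.22 in 72 h controls.

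Of the 15 genes that rose with overexpression, 6 lie on 1 stretch of chromosome 14, between 20 and 60 Mb, a range chosen after the values were seen: PSMB5, PSME1, PSME2, PSMA6, PSMC6 and PSMA3. All 6 proteasome genes of the stretch rose, by 0.38 to 0.86. The 150 other tested coding genes there had a median change of 0.46, and 70% of them were higher, against a median of 0.065 and 35.4% over 175 genes on the rest of the chromosome, where PSMC1 changed by 0.038 and did not pass. Of the 38 tested proteasome genes on other chromosomes, 9 were higher and 9 lower with overexpression, with a median of -0.014. Over all tested genes 29.9% were higher and 25.5% lower. Whole chromosomes differed too: of their other tested coding genes, 59.6% were higher on chromosome 21, 51.4% on chromosome 14 and 12.6% on chromosome 15. A raised region was therefore not particular to chromosome 14. With knockdown the same stretch of 150 genes had a median of 0.31, below the 0.46 of the rest of the chromosome.

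Set against the median of tested coding genes within 5 Mb, in place of all genes, the PA28 genes did not stand out with overexpression: PSME1 was 0.053 above its 77 neighbours and PSME2 -0.16, and PSMB5, in the same neighbourhood, was 0.11 above. PSMA3 (0.62), PSMC6 (0.46) and PSMA6 (0.32) remained above theirs. PSMB10, on chromosome 16 between 67934506 and 67936864 (GRCh38, the coordinates of the deposited table), was 1.14 above the median of its 90 neighbours, almost its whole change. PSMD2 was -0.74 against neighbours on chromosome 3 whose median was 0.50. With knockdown, PSME1 and PSMB10 were -0.80 and -1.09 against the same neighbours, and PSMD2 and PSMD3 1.31 and 1.05. Whether position contributes to these changes was not tested.

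**Figure D5:**
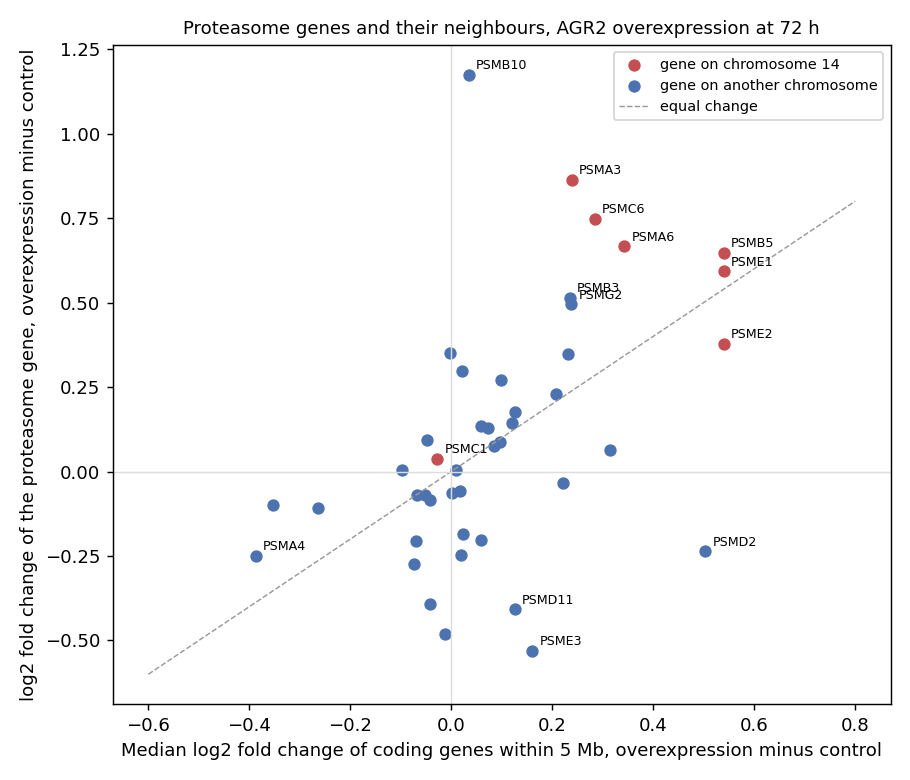
The horizontal axis is the median log2 fold change, overexpression minus control at 72 h, of tested coding genes within 5 Mb of each proteasome gene, and the vertical axis the gene's own change; red points lie on chromosome 14 and the dashed line marks equal change. PSME1, PSMB5 and PSME2 sit near the line at a neighbour median of 0.54, while PSMB10 sits far above it at 0.035.

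The controls themselves differed between 72 and 24 h of gefitinib. Of 45 tested genes 17 were higher and 4 lower at 72 h, where 61% of all tested genes were called, 52.9% higher and 8.1% lower. The median tested gene was 0.30 higher, and after rescaling 5 were higher and 25 lower, where 53.5% of all tested genes were called, 29.1% higher and 24.5% lower. The groups did not overlap for 23 higher and 7 lower proteasome genes, and for 58.4% of all tested genes higher and 10.8% lower. Relative to the median gene the core lay low, with class medians of -0.43 for the alpha and -0.37 for the beta subunits, and 0 of 7 alpha subunits were higher. PSMD11, PSMD2, PSMD1, PSME3 and PSME4 were higher at 72 h both as deposited and after rescaling; PSME3 averaged 37.6 ± 0.20 TPM at 72 h and 21.4 ± 1.6 TPM at 24 h (0.79 ± 0.080, adjusted p = 1.81e-05). These 5 genes also rose with knockdown and fell with overexpression. The knockdown comparison shares its 24 h controls with this one and the overexpression comparison its 72 h controls, so the values stand side by side and were not correlated. The 4 lower genes were PSMA2, PSMA3, PSMB7 and PSMG2, by 0.12 to 0.27, and leaving out any 1 library left 1 to 3 lower. Immunoproteasome genes changed by 0.022 (PSMB8) to 0.31 (PSMB9), of which only PSMB9 passed (adjusted p = 0.0144), and without 24 h control replicate 2 its change of 0.25 did not. After rescaling PSMB9 did not pass either, with a change of 0.00037 (limma adjusted p = 0.998), and PSMB8 was called lower (-0.38, adjusted p = 0.0221). Calls for both genes thus rest on the scaling.

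Of 15 genes for proteins of the proteasome whose symbols do not begin with PSM, 10 rose and 0 fell with knockdown, where 53.6% of all tested genes were higher and 11.9% lower. After rescaling 7 were higher and 6 lower, where 30.6% and 28.4% of all tested genes were. The list's median relative change was 0.085, close to that of the median tested gene. Among the 6 lower after rescaling were SEM1, PAAF1 and TXNL1, which did not pass as deposited (-0.037, 0.046 and 0.088). UCHL5, a cap deubiquitinase, averaged 6.68 ± 0.35 TPM in knockdown cells and 2.09 ± 0.21 TPM in 24 h controls (1.31 ± 0.066, adjusted p = 7.66e-08). UBE3C and ECPAS, a ligase and an adaptor at the proteasome, both rose by 1.09, and POMP, the chaperone that completes the core, rose by 0.92. With overexpression 3 of 15 rose and 6 fell, where 29.9% of all tested genes were higher and 25.5% lower, with a median relative change of -0.046; among those that fell was AKIRIN2, which carries proteasomes into the nucleus (-0.63 ± 0.048, adjusted p = 2.37e-06).

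Of 15 genes for ubiquitin, its activating enzymes and the shuttles and segregase that deliver substrates, 12 rose and 0 fell with knockdown, where 53.6% of all tested genes were higher and 11.9% lower. After rescaling 9 were higher and 2 lower, where 30.6% and 28.4% of all tested genes were, and the list's median relative change was 0.31. NPLOC4 (1.40 ± 0.069), UFD1 (1.13 ± 0.059) and VCP (1.05 ± 0.048), which together extract ubiquitinated proteins, and the shuttle UBQLN1 (1.29 ± 0.079) had the largest called changes. VCP averaged 121 ± 4.4 TPM in knockdown cells and 58.1 ± 1.8 TPM in 24 h controls. Of the ubiquitin genes UBB rose by 0.38, and RPS27A changed by -0.024 and did not pass. With overexpression 4 of the 15 rose and 4 fell, near the 29.9% higher and 25.5% lower over all tested genes.

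Of 8 regulators of proteasome genes, 5 rose and 1 fell with knockdown, and 2 were higher and 3 lower after rescaling. These counts lay near the background of 53.6% higher and 11.9% lower as deposited and of 30.6% and 28.4% after rescaling, and the list's median relative change was -0.074. NFE2L1 averaged 74.7 ± 5.0 TPM in knockdown cells and 47.8 ± 5.0 TPM in 24 h controls (0.64 ± 0.091, adjusted p = 0.000124), a rise that no longer passed after rescaling, and 107 ± 10.1 TPM in overexpressing cells and 121 ± 2.3 TPM in 72 h controls (-0.19, adjusted p = 0.105), a difference called lower only after rescaling. DDI2, the protease that activates NFE2L1, rose with knockdown by 0.88. IRF1, an interferon-induced activator of immunoproteasome genes, averaged 0.998 ± 0.029 TPM in knockdown cells and 1.30 ± 0.037 TPM in 24 h controls (-0.20 ± 0.044, adjusted p = 0.00199), and 2.64 ± 0.026 TPM in overexpressing cells and 2.17 ± 0.042 TPM in 72 h controls (0.20 ± 0.044, adjusted p = 0.00329). It fell with knockdown and rose with overexpression at a low level. NLRC5, the activator of MHC class I genes, rose with knockdown by 0.50 and fell with overexpression by 0.37.

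Of 9 genes that load MHC class I, 6 rose and 0 fell with knockdown, where 53.6% of all tested genes were higher and 11.9% lower, and 2 were higher and 2 lower after rescaling, where 30.6% and 28.4% were. The list's median relative change was -0.0095, close to that of the median tested gene. TAP2, a peptide transporter subunit, rose by 1.00 and HLA-B by 0.75, while TAP1, which shares its promoter region with PSMB9, changed by -0.063 and did not pass (adjusted p = 0.399). With overexpression, where 29.9% of all tested genes were higher and 25.5% lower, HLA-C rose (0.24) and ERAP1, ERAP2, TAP2 and TAP1 fell, by 0.51, 0.38, 0.33 and 0.25. All 9 were higher in 72 h than in 24 h controls, where 52.9% of all tested genes were, by 0.60 (B2M) to 1.65 (TAPBP).

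Adding the TPM of pseudogene entries to 11 genes that have them gave 39 higher and 3 lower genes with knockdown and 16 and 10 with overexpression, with PSMA6 then higher by 0.75 and PSME2 by 0.34 with overexpression; the difference between the 2 effects no longer passed for PSME2, at 0.44. A listed gene on the other strand overlaps 23 of the 46, among them PSME1 (EMC9), PSME2 (RNF31), PSMA3 (PSMA3-AS1), PSMD3 and PSMD11; the 23 without one held 22 higher and 1 lower with knockdown and 8 higher and 2 lower with overexpression. PSMB10, PSMB5, PSMC6, PSMD2 and PSMD12 overlap none. Over all tested genes as deposited, 53.6% were higher and 11.9% lower with knockdown, and 29.9% and 25.5% with overexpression. Shares over all genes with pseudogene entries added, or over genes without a partner on the other strand, are not given.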

How the data were processed

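RNA-seq of 12 PC9 libraries was deposited by the authors as TPM for 30225 genes; alignment used STAR 2.7.8a and the hg38 genome, per the submitters' processing notes. The quantifier, annotation release and strandedness are given in no source used here. TPM keep no counts, so the depth per library is unknown and a count test was not possible. The 15721 genes at 1 TPM or more in 3 or more libraries were tested on log2(TPM + 1) with limma 3.58.1 in R 4.3.3, as 4 group means over 12 libraries with trended empirical Bayes variances; p-values were Benjamini-Hochberg adjusted over all tested genes at a threshold of 0.05. Ratios within libraries were compared by exact permutation of 3 against 3, whose smallest p is 0.1. The members, gene lists and comparisons were chosen with earlier results of these data known. Values of every library are given for PSMB5 to PSMB10, PSME1, PSME2 and the 4 genes with the largest called change in the knockdown and in the overexpression comparison; other genes were named to describe their class. Tried as alternatives were other pseudocounts and filters, median-ratio, quantile and protein-coding rescaling, each comparison's libraries alone, robust variances, a replicate block, leaving out each library, added pseudogene entries, length and GC trends, genes with no partner on the other strand, and neighbours within 5 Mb. Promoters are from RefSeq (GRCh38.p14), matched by symbol for 40 of 46 genes. The procedure was tested on simulated data. A few genes of the lists are not reported here by name.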

Additional observations from a re-analysis of the deposited data

Results flagged for a closer look

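Of 45 tested genes 39 passed the difference between the 2 effects; given here are the 10 of them whose values in every library are in the report, a choice not made by size (among the others PSMD14 had -1.73 and PSMD1 -1.69). They were singled out because the overexpression effect minus the knockdown effect, tested as one limma contrast with Benjamini-Hochberg adjustment, passed the threshold; the 2 effects also differ in time under gefitinib. The immunoproteasome genes had positive differences: PSMB10 1.81 ± 0.28 (adjusted p = 0.000225), PSME1 1.25 ± 0.14 (adjusted p = 1.74e-05) and PSME2 0.47 ± 0.15 (adjusted p = 0.0209). PSME2 lost the call, at 0.44, once its pseudogene entries were added. The cap subunits had negative ones: PSMD11 -2.06 ± 0.068 (adjusted p = 4.88e-09), PSMD2 -2.02 ± 0.069 (adjusted p = 5.6e-09), PSMD12 -1.40 ± 0.088 (adjusted p = 3.11e-07), PSMD3 -1.38 ± 0.080 (adjusted p = 1.8e-07) and the base ATPase PSMC6 -0.42 ± 0.11 (adjusted p = 0.00602). PSMC6 rose in both populations, and its difference passed as deposited but not after median-ratio rescaling (-0.0042), quantile normalisation (-0.10) or protein-coding rescaling (-0.23), and was 0.039 with the length and GC trend removed. The catalytic core subunits PSMB6 and PSMB7 had differences of -1.02 ± 0.19 (adjusted p = 0.000693) and -0.87 ± 0.11 (adjusted p = 4.94e-05).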

How the results depend on the processing

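The rise of PSMD2, PSMD11, PSMD3 and PSMD12 with knockdown kept its direction and call under every alternative run, and changes of PSMB8 and PSME2 with knockdown passed only where libraries were rescaled, quantile normalised or corrected for length and GC. Of 269 values for single genes recomputed with knockdown, 258 kept direction and call, 2 lost the call, 8 gained it and 1 turned sign; with overexpression 253 of 269 kept both. Between controls 34 of 269 turned sign, most of them under the same settings, so these directions rest on the scaling. Replicate numbers did not pair the libraries (correlations of same-numbered libraries -0.159 to 0.062), and with the replicate block the counts were 39 higher and 3 lower with knockdown, 15 and 9 with overexpression, 19 and 5 between controls and 4 and 35 for the difference of effects. TPM keep no read counts, so depth is unknown and limits the low genes, and libraries may be technical replicates. Alternatives on pseudogenes, length and GC, opposite strands and neighbours were chosen after seeing the data, and the cause of each shift below was not tested. Medians below are of changes relative to the median tested gene, or to neighbours where so named. Shares over all tested genes are given only as deposited and after median-ratio rescaling. Counts of genes under the other settings stand without such a background.

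Leaving out each library in turn left 37 to 39 genes higher and 2 to 3 lower with knockdown, 10 to 14 and 7 to 15 with overexpression, 15 to 18 and 1 to 3 between controls, and 3 to 4 and 32 to 37 for the difference of effects. The assembly median with knockdown ran from 0.059 to 0.33, and that of the other activators and inhibitor between controls from 0.43 to 0.50. Signs turned within these ranges for PSMB8 with knockdown (-0.073 to 0.013), with overexpression (-0.017 to 0.24) and between controls (-0.017 to 0.069), PSMA6 between controls (-0.024 to 0.032), PSMA3 for the difference of effects (-0.13 to 0.0043) and the ratio PSMB9 to PSMB6 with overexpression (-0.062 to 0.047). The 15 lower genes with overexpression came without overexpression replicate 1. PSMA3 between controls no longer passed without 24 h control replicate 1 or 2 or 72 h control replicate 2 or 3 (-0.21 to -0.18), and PSMD12 with overexpression passed without 72 h control replicate 1 (0.19).

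With a pseudocount of 0.1, with knockdown, the median was 0.66 for other cap and 0.063 for assembly. With a pseudocount of 0.1, between 72 h and 24 h controls, the median was -0.59 for core alpha, -0.26 for base ATPases, -0.12 for other cap and 0.40 for other activators and inhibitor. With a pseudocount of 5, with knockdown, the median was -0.33 for immunoproteasome, 0.37 for other activators and inhibitor and 0.32 for assembly. With a pseudocount of 5, with overexpression, the median was -0.33 for other activators and inhibitor, and the sign turned for the ratio PSMB9 to PSMB6 (0.079). With a pseudocount of 5, between 72 h and 24 h controls, the median was -0.21 for core alpha, -0.21 for core beta, -0.028 for base ATPases, 0.13 for other cap and 0.34 for other activators and inhibitor. With no filter on low values, with knockdown, the median was 0.85 for core alpha, 0.79 for core beta, 1.15 for base ATPases, 1.05 for other cap, 0.77 for other activators and inhibitor and 0.34 for assembly. With no filter on low values, between 72 h and 24 h controls, the median was -0.20 for core alpha, -0.13 for core beta, 0.074 for base ATPases, 0.23 for other cap and 0.71 for other activators and inhibitor. With a filter of 5 TPM, with knockdown, the median was 0.32 for assembly. With a filter of 5 TPM, between 72 h and 24 h controls, the median was 0.43 for other activators and inhibitor. After median-ratio rescaling, with knockdown, there were 7 lower genes, and the median was 0.45 for core alpha, 0.76 for base ATPases, 0.64 for other cap and 0.049 for assembly. After median-ratio rescaling, between 72 h and 24 h controls, there were 5 higher and 25 lower genes, and the median was -0.26 for base ATPases, -0.12 for other cap and 0.38 for other activators and inhibitor, and the sign turned for PSMB5 (-0.25), PSMB8 (-0.38), PSMB10 (-0.18), PSME1 (-0.18), PSME2 (-0.18), PSMC6 (-0.31) and PSMA6 (-0.36). After median-ratio rescaling, for the overexpression effect minus the knockdown effect, there were 9 higher genes, and the sign turned for PSMB5 (0.21), PSMA3 (0.38) and PSMA6 (0.23). After quantile normalisation, with knockdown, there were 7 lower genes, and the median was 0.70 for other cap and 0.40 for other activators and inhibitor. After quantile normalisation, between 72 h and 24 h controls, there were 6 higher and 23 lower genes, and the median was 0.38 for other activators and inhibitor and -0.19 for assembly, and the sign turned for PSMB5 (-0.20), PSMB8 (-0.29), PSMB9 (-0.026), PSMB10 (-0.099), PSME1 (-0.068), PSME2 (-0.095), PSMC6 (-0.29) and PSMA6 (-0.35). After quantile normalisation, for the overexpression effect minus the knockdown effect, there were 8 higher genes, and the sign turned for PSMB5 (0.071), PSMA3 (0.28) and PSMA6 (0.16). With TPM rescaled over protein-coding nuclear genes, with knockdown, there were 6 lower genes, and the median was 0.76 for base ATPases, 0.64 for other cap and 0.11 for assembly. With TPM rescaled over protein-coding nuclear genes, between 72 h and 24 h controls, there were 6 higher and 19 lower genes, and the median was -0.62 for core alpha, -0.54 for core beta, -0.33 for base ATPases, -0.18 for other cap, 0.33 for other activators and inhibitor and -0.41 for assembly, and the sign turned for PSMB5 (-0.12), PSMB8 (-0.25), PSMB10 (-0.046), PSME1 (-0.044), PSME2 (-0.050), PSMC6 (-0.19) and PSMA6 (-0.25). With TPM rescaled over protein-coding nuclear genes, for the overexpression effect minus the knockdown effect, the sign turned for PSMA3 (0.17) and PSMA6 (0.020). With pseudogene entries added, between 72 h and 24 h controls, the sign turned for PSMA6 (-0.087). With each library's length and GC trend removed, with knockdown, there were 7 lower genes, and the median was 0.43 for core alpha, 0.32 for other activators and inhibitor and 0.31 for assembly. With each library's length and GC trend removed, between 72 h and 24 h controls, there were 8 higher and 16 lower genes, and the median was 0.52 for other activators and inhibitor, and the sign turned for PSMB5 (-0.12), PSMB8 (-0.30), PSMB10 (-0.12), PSME1 (-0.051), PSME2 (-0.021), PSMC6 (-0.15) and PSMA6 (-0.26). With each library's length and GC trend removed, for the overexpression effect minus the knockdown effect, there were 9 higher genes, and the sign turned for PSMB5 (0.089), PSMA3 (0.36), PSMC6 (0.039) and PSMA6 (0.36). Among the 23 genes with no listed gene on the other strand, a smaller set, with knockdown, there were 22 higher and 1 lower genes. Among the 23 genes with no listed gene on the other strand, a smaller set, with overexpression, there were 8 higher and 2 lower genes. Among the 23 genes with no listed gene on the other strand, a smaller set, between 72 h and 24 h controls, there were 5 higher and 2 lower genes. Among the 23 genes with no listed gene on the other strand, a smaller set, for the overexpression effect minus the knockdown effect, there were 1 higher and 20 lower genes. Relative to genes within 5 Mb, with knockdown, the median was 0.43 for core alpha, 0.62 for base ATPases and 0.37 for other activators and inhibitor. Relative to genes within 5 Mb, between 72 h and 24 h controls, the median was -0.58 for core alpha, 0.42 for other activators and inhibitor and -0.27 for assembly.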
